A study of Homo sapiens with 12 samples.

Results

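Expression was followed for 49 genes of chromatin writers, erasers and remodellers, the enzymes and enzyme subunits that place or remove marks on DNA and histones or move nucleosomes. The genes were taken from a list of symbols that was drawn up with earlier results of these data known, and all 49 were measured among 19775 genes. Each gene was read from 1 Affymetrix HG-U133 Plus 2.0 probe set, a group of short probes on the array for 1 transcript. Of several probe sets for a gene, the 1 brightest on average across the 12 arrays was used. The 49 genes had 156 probe sets in all, 12 genes with 1 and 37 with several.

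The arrays came from U937, an established human line from a histiocytic lymphoma that resembles immature monocytes. All cells carried a stably transduced, puromycin-selected TRIPZ cassette, which makes a hairpin RNA against ZXDC1/2 when doxycycline is present. Cultures received 100 nM PMA, a phorbol ester that drives these cells toward a monocyte or macrophage state, or 0.1% DMSO as vehicle, for 3 days. Each agent was given without doxycycline or with 0.5 µg/mL of it daily for 4 days, the first 2 of them before the agent. This gave 4 groups of 3 arrays, which the labels call biological replicates. The labels speak of individual lines without saying whether these were clones or how many there were, and they name no control hairpin, so an effect of the hairpin and an effect of doxycycline cannot be told apart.

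Chromatin enzymes work as writers, which add methyl or acetyl groups, and erasers, which take them off. DNA methyltransferases and the H3K9 and H3K27 histone methyltransferases are best known for silencing, while H3K4 and H3K79 methylation and histone acetylation mark active genes. Several of these enzymes, such as DNMT1, EZH2 and HELLS, are known to be expressed mostly in dividing cells, and PMA is known to slow the division of U937 cells as they differentiate. In myeloid cells these enzymes are known for holding or releasing differentiation genes.

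Promoter sequences are shown for 4 genes: HELLS and EZH2 had the largest falls under PMA without doxycycline, EZH1 is the close relative of EZH2 that did not fall, and DNMT1 fell and holds none of the letters searched for. Each sequence is the 250 bases before the transcription start, from RefSeq on GRCh38.p14, written 5′ to 3′ in the direction of the gene. Capitals mark the letters of an E2F motif, which are TTCCCGC, the variant TTCGCGC, the variant TTGCCGC and the variant TTGGCGC, or of a CCAAT box, on either strand. E2F proteins are the transcription factors that drive S phase genes, and the CCAAT box is bound by NF-Y. The HELLS window is chr10:94545538-94545787 on the plus strand. The first of 2 windows of EZH2 is chr7:148884292-148884541, that of EZH1 chr17:42745041-42745290 and that of DNMT1 chr19:10194954-10195203, all on the minus strand.
HELLS: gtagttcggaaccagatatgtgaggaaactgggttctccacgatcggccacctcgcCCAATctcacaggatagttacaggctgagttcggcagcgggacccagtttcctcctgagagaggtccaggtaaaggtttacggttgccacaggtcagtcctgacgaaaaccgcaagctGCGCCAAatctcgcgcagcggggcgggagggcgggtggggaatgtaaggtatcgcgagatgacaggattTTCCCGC
EZH2: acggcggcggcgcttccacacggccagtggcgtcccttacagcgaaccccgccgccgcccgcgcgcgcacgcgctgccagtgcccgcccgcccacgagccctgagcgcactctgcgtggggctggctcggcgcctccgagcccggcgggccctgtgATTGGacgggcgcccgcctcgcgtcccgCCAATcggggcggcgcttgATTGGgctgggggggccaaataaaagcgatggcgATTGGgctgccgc
EZH1: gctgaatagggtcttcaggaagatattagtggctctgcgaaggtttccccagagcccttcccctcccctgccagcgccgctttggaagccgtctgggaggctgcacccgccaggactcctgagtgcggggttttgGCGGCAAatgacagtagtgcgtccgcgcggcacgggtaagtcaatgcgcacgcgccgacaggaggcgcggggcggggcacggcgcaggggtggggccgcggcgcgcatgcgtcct
DNMT1: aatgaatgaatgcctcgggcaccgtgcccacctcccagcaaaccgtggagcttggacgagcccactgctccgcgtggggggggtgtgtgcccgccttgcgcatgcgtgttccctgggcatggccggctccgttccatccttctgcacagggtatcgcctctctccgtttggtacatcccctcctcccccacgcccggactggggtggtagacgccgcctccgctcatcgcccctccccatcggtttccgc
HELLS holds E2F letters 76 and 7 bases before its start and 1 CCAAT box, this EZH2 window holds 4 CCAAT boxes and no E2F letters, and EZH1 holds E2F letters 115 bases before its start.

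A promoter window was found for 47 of the 49 genes, 78 windows in all. E2F letters were in 10.3% of these windows and in 10.9% of all 35114 windows. They were present in 8 genes. Of these HELLS and SUZ12 fell under PMA, EZH1 rose under PMA with doxycycline present, and TET3, HDAC4, HDAC9, KAT2A and EP300 did not pass the test. The CHR letters TTTGAA or TTCGAA, known from late cell cycle genes, were in 5.13% of the windows and in 14.3% of all. CCAAT was in 26.9% against 32.0%, and the GC box GGGCGG in 57.7% against 42.6%. ATTGG, the other strand of CCAAT, can share bases with TTGGCGC. A match of letters is a description and not a bound site.

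Before the members, the arrays were checked against their labels. ZXDC was lower with doxycycline in 6 of 6 pairs of arrays, by 0.50 on the log2 scale on average, which left 70.9% of its signal (exact permutation test within agents, two-sided, p = 0.005, the smallest that 400 relabelings allow). The array medians lay between 5.16 and 5.22. Of the immature myeloid markers, ELANE and CTSG stood at 12.2 and 13.2 in vehicle, while MPO was at 4.33, under the array median. The mean of 11 monocyte and macrophage markers was 5.96 to 6.17 on the vehicle arrays and 7.94 to 8.74 on the PMA arrays. Under PMA 7 of these were called higher, without and with doxycycline. LYZ (-0.55 and -0.33), MSR1, MRC1 and FCGR1A did not pass. The mean of 11 immature myeloid markers was 9.38 to 9.57 on the vehicle arrays and 7.06 to 7.58 on the PMA arrays. Here 7 were called lower in both states, and ANPEP, MPO, SPI1 and CEBPA did not pass. The mean of 5 T and NK cell markers lay between 6.0 and 6.31 on all arrays, with NKG7 the brightest at group means of 10.37 to 10.73. CD3D was higher under PMA than in vehicle, by 0.39 with doxycycline (adjusted p = 0.0207) and 0.23 without it (0.172). The mean of 4 B cell markers was 6.05 to 6.22 on the vehicle arrays and 5.30 to 5.67 on the PMA arrays, where PAX5 (-1.37 and -1.16) and EBF1 (-1.08 and -1.21) were called lower. Of 5 erythroid and megakaryocyte markers KLF1 was called lower, at -0.82 and -0.90. PECAM1 and VWF, from the list of 10 epithelial, endothelial and fibroblast genes, rose by 3.32 and 6.93 without doxycycline, and none of the other 8 passed. The part of these markers in the results was not tested. The 4 arrays numbered 1 stood apart in the ACTB measure of RNA quality. Their ACTB 3′ probe set exceeded the 5′ one by 1.99 to 2.72, against 0.71 to 1.64 on the other 8. The same difference for GAPDH did not set them apart, at 0.172 to 0.247 against 0.121 to 0.252 on the other 8.

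PMA lowered many more of the chromatin genes than it raised. Without doxycycline 28 of 49 passed the test (limma, Benjamini-Hochberg adjusted p under 0.05 over all genes), 26 lower and 2 higher, where 31.7% of all genes passed, 18.9% lower and 12.7% higher. The members' shares were 57.1%, 53.1% and 4.08%. With doxycycline 28 passed again, 24 lower and 4 higher, against 32.5% of all genes, 19.5% lower and 13.0% higher. Of the members only HDAC4 and HDAC9 had a mean under 5, and brighter genes passed more often. In a fit of only the 13147 genes with a mean of at least 5, 46.8% passed without doxycycline, 3685 genes lower and 2464 higher. With doxycycline 47.9% of them passed, 3804 lower and 2487 higher. The median difference over the 49 genes was -0.47 without and -0.41 with doxycycline, where the medians of all genes were 0.01 and -0.01. These comparisons use separate arrays but a shared estimate of the spread. Arrays with the same number and agent deviated together, so the comparisons are not independent. Both called 23 of the genes lower and 2, DNMT3A and DOT1L, higher, beside 16.8% and 10.6% of all genes.

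Groups that did not overlap were counted too. Without doxycycline the 3 PMA arrays lay wholly below the 3 vehicle arrays for 29 of 49 genes (59.2%, against 23.0% of all genes) and wholly above for 4 (8.16%, against 18.8%). With doxycycline the counts were 29 and 6, against 24.4% and 18.1% of all genes. The shares of all genes include many dim ones, while of the members only HDAC4 and HDAC9 had a mean under 5. Genes of cell division moved with the same contrast: of 25 such markers 24 fell without doxycycline and 25 with it (medians -2.01 and -2.05), and their mean was 9.94 to 10.45 on the vehicle arrays and 8.01 to 8.36 on the PMA arrays. Their part in the falls of the chromatin genes was not tested. Since RNA came from whole cultures, fewer cells making a transcript and less of it per cell cannot be told apart.

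**Figure D1:**
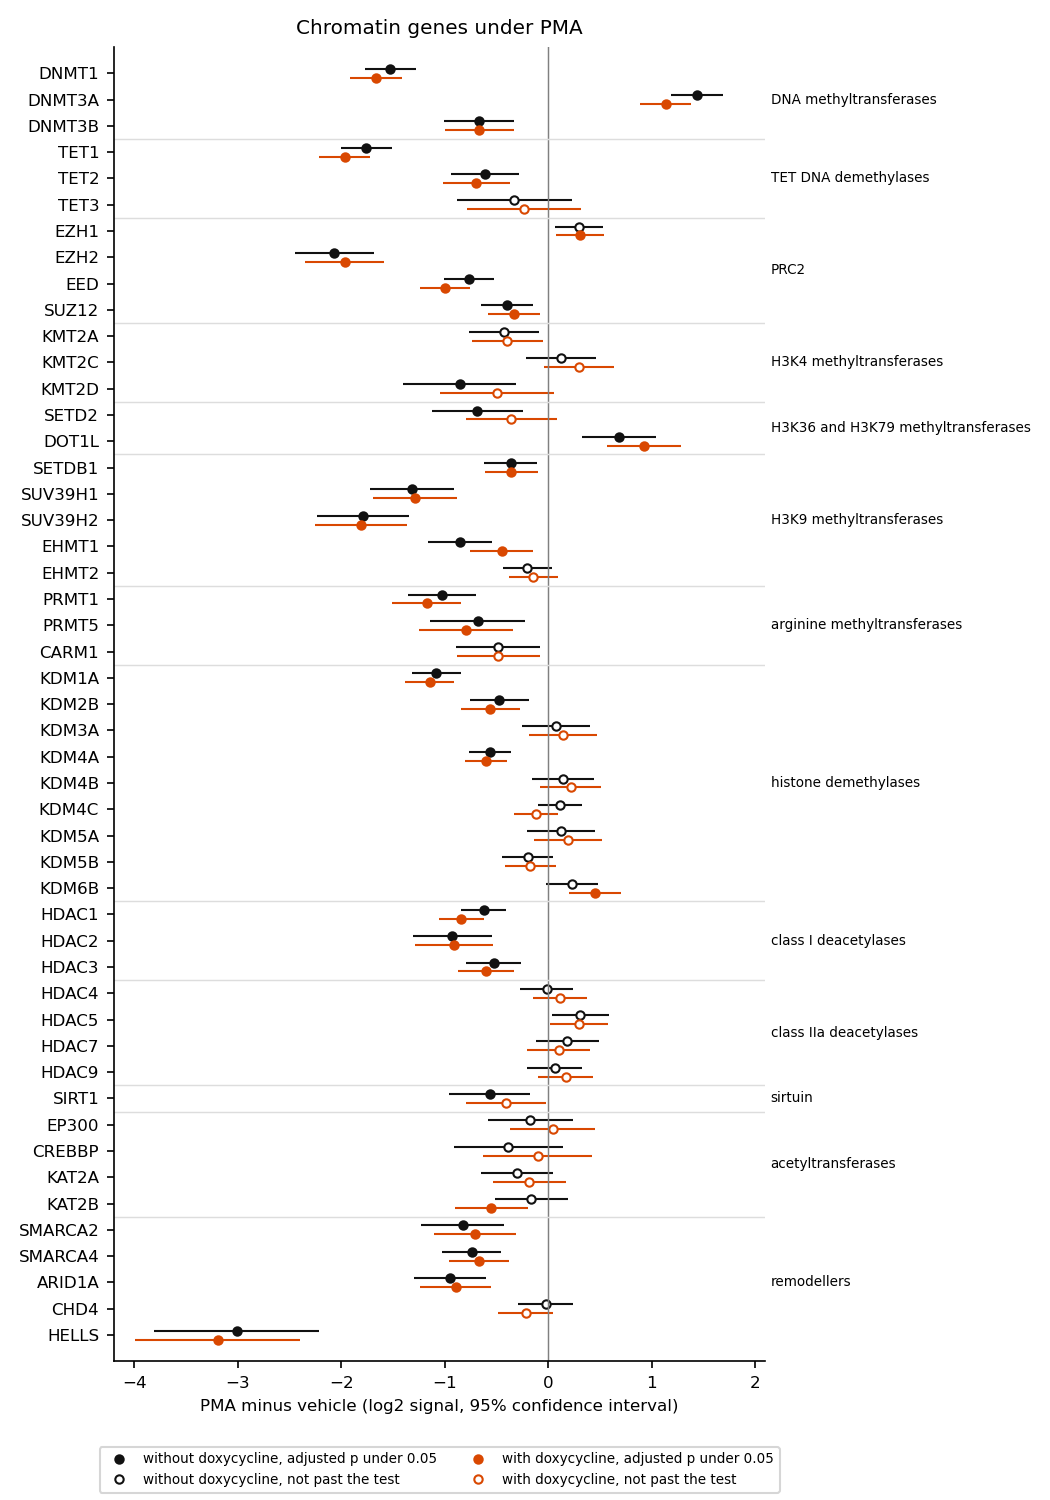
PMA minus vehicle for the 49 genes on the log2 scale, with points as differences of group means of 3 arrays, lines as 95% confidence intervals, black without and orange with doxycycline, filled where the adjusted p was under 0.05. The points of HELLS at -3.01 and -3.19 lie farthest to the left, and those of DNMT3A at 1.44 and 1.13 farthest to the right.

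The 3 DNA methyltransferases moved in opposite directions. DNMT1, the maintenance enzyme that copies methylation to the new strand after replication, and DNMT3B, a de novo enzyme, fell, while the other de novo enzyme DNMT3A rose. The signal of DNMT1 was 11.39, 11.52 and 11.57 on the vehicle arrays numbered 1 to 3 and 11.26, 11.67 and 11.44 with doxycycline. Under PMA it was 10.04, 9.99 and 9.86, and 9.82, 9.75 and 9.81 with doxycycline. DNMT1 fell by 1.53 without doxycycline (SE 0.12, 2.88-fold, adjusted p = 2.57e-07) and fell by 1.67 with it (SE 0.12, 3.17-fold, adjusted p = 9.42e-08). All 6 PMA arrays were below all 6 vehicle arrays, by a gap many times the spread within a group. DNMT3A had 7.48, 7.25 and 7.30 in vehicle and 7.50, 7.24 and 7.58 in vehicle with doxycycline. Its PMA values were 8.86, 8.76 and 8.72 without and 8.53, 8.52 and 8.68 with doxycycline. It rose by 1.44 without doxycycline (SE 0.12, 2.71-fold, adjusted p = 4.64e-07) and by 1.13 with it (SE 0.12, 2.19-fold, adjusted p = 3.66e-06). Here all 6 PMA arrays were above all 6 vehicle arrays. Another DNMT3A probe set gave 1.46 and 1.10, and the third gave 0.77 and 0.44. DNMT3B differed by -0.67 and -0.66 (adjusted p = 0.00402 and 0.00412). Of 8 listed partners of DNA methylation, 7 were measured, of which 2 fell in both comparisons and none rose (list medians -0.13 and -0.092). UHRF1, which brings DNMT1 to hemimethylated DNA, was at -2.61 and -2.74, and MBD3, a NuRD subunit, at -0.57 and -0.64.

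The TET enzymes oxidise methylcytosine and so start its removal. TET1 fell most of the 3. Its signal was 6.21, 6.04 and 5.98 in vehicle, 6.09, 5.88 and 5.87 in vehicle with doxycycline, 4.41, 4.37 and 4.18 under PMA and 3.88, 3.95 and 4.10 under PMA with doxycycline. It fell by 1.76 without doxycycline (SE 0.11, 3.39-fold, adjusted p = 5.87e-08) and fell by 1.97 with it (SE 0.11, 3.91-fold, adjusted p = 1.73e-08). The groups of PMA and vehicle were wide apart, and the PMA arrays lay below the array medians. TET2, often mutated in myeloid disease, fell by 0.61 and 0.69 (adjusted p = 0.00614 and 0.00237), but averaged over its 3 probe sets the difference without doxycycline was -0.17 (adjusted p = 0.149). The 2 TET2 probe sets not used lay under the array medians, at means of 4.18 and 3.04. TET3 did not pass, at -0.33 and -0.23. Without PMA array 1 its difference was -0.63 (adjusted p = 0.0466).

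In PRC2, the Polycomb complex that methylates H3K27, the catalytic subunit EZH2 fell while the alternative catalytic subunit EZH1 did not. EZH2 had 9.20, 9.80 and 9.83 in vehicle and 9.11, 9.50 and 9.62 with doxycycline. Under PMA the values were 7.66, 7.35 and 7.62, and 7.60, 7.35 and 7.38 with doxycycline. EZH2 fell by 2.07 without doxycycline (SE 0.18, 4.19-fold, adjusted p = 8.3e-07) and fell by 1.97 with it (SE 0.18, 3.91-fold, adjusted p = 1.14e-06). The lowest vehicle array was more than 1 unit above the highest PMA array. EZH1 differed by 0.29 and 0.31 (adjusted p = 0.051 and 0.0392). It passed only in the comparison with doxycycline, and that call ended without any 1 of 7 arrays, among them vehicle array 2 with doxycycline (0.22, adjusted p = 0.175). Without doxycycline EZH1 passed when vehicle array 1 (adjusted p = 0.042) or 2 (0.0338) with doxycycline was left out, which changes only the shared estimate of the spread. Of the non-catalytic core subunits, EED differed by -0.76 and -1.0 (adjusted p = 9.82e-05 and 7.95e-06) and SUZ12 by -0.40 and -0.33 (adjusted p = 0.0171 and 0.0423). The SUZ12 call without doxycycline ended without vehicle array 2 or 3 or PMA array 2 or 3 (adjusted p between 0.0539 and 0.0765), and with doxycycline it ended without any of 8 arrays (adjusted p between 0.0506 and 0.16). EED has a second probe set that did not pass, at -0.37 and 0.14, but it was dim, at a mean of 3.92 under the array medians.

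Partners of Polycomb went both ways. Of 20 listed, 15 were measured, and in each comparison 6 fell and 5 rose (list medians -0.099 and -0.076). RBBP4 and RBBP7, histone-binding subunits shared with other complexes, differed by -1.25 and -1.19 and by -1.23 and -1.40. PHF1 and JARID2, accessory subunits of PRC2, rose by 1.06 and 1.25 and by 0.86 and 1.02.

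**Figure D2:**
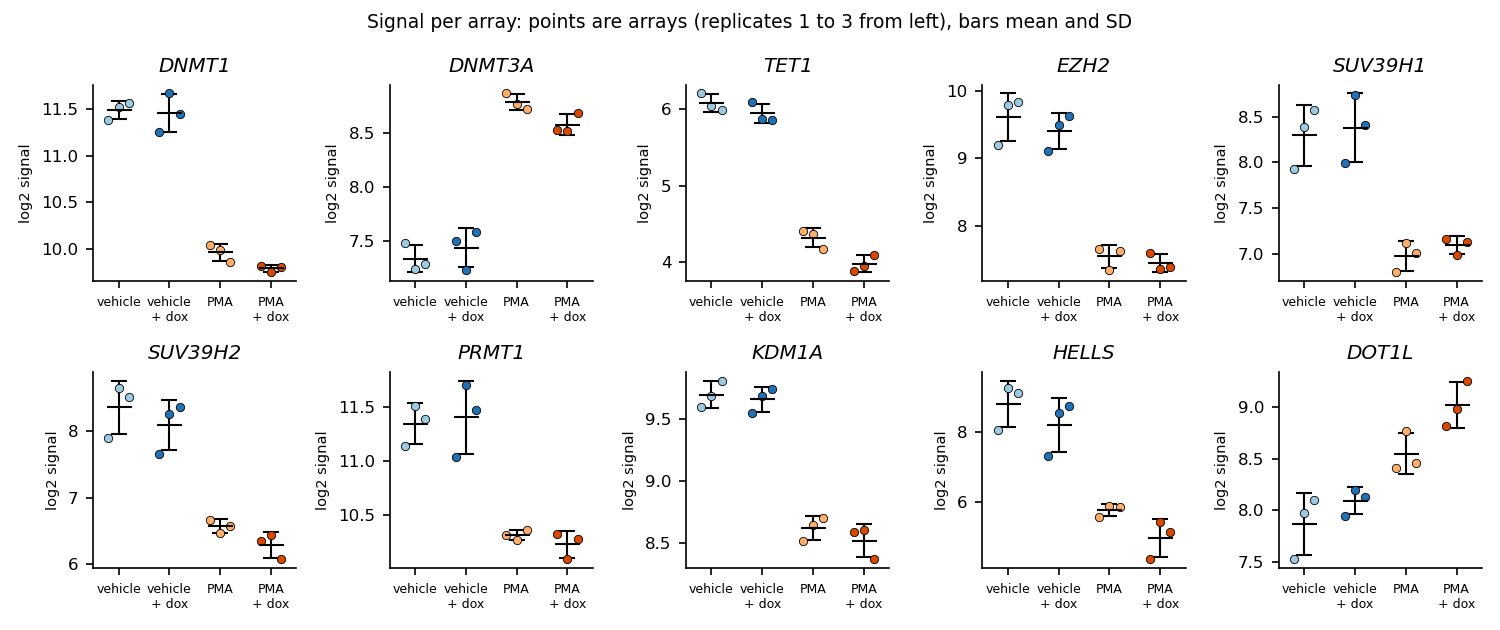
Log2 signal of 10 genes on each of the 12 arrays (y axis, a separate scale for each gene), with points as arrays in the order of replicates 1 to 3, long bars as group means and short bars as SD. For DNMT1, TET1, EZH2, SUV39H1, SUV39H2, PRMT1, KDM1A and HELLS every PMA array is below every vehicle array, and for DNMT3A and DOT1L every one is above.

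Of the 5 methyltransferases of H3K4, H3K36 and H3K79, DOT1L, KMT2D and SETD2 passed without doxycycline and DOT1L with it. DOT1L, the only known H3K79 methyltransferase, rose. Its signal was 7.52, 7.97 and 8.10 in vehicle and 7.94, 8.20 and 8.13 with doxycycline. Under PMA it was 8.40, 8.77 and 8.46, and 8.81, 8.98 and 9.26 with doxycycline. DOT1L rose by 0.68 without doxycycline (SE 0.16, 1.61-fold, adjusted p = 0.00491) and by 0.93 with it (SE 0.16, 1.9-fold, adjusted p = 0.000465). All 6 PMA arrays were above all 6 vehicle arrays, though by a narrower gap than for DNMT3A. The second probe set rose by 0.57 and 0.59. The third, dim at a mean of 4.08, differed by 0.10 and 0.069 without passing. SETD2, which trimethylates H3K36, differed by -0.69 and -0.36 (adjusted p = 0.0185 and 0.221). KMT2D, an H3K4 enzyme of enhancers, differed by -0.86 and -0.49 (adjusted p = 0.0187 and 0.178). Both passed only in the comparison without doxycycline, and no member passed the test of the interaction, so a difference between the states of the hairpin is not shown. On the PMA arrays without doxycycline the third had the lowest KMT2D signal, 7.17, beside 8.35 and 8.40 on the others. The KMT2D call ended without vehicle array 1 (adjusted p = 0.0693) or 3 (0.0623), and that of SETD2 without vehicle array 1 (0.0671), PMA array 2 (0.0561) or PMA array 3 (0.0994). No other probe set of either gene passed without doxycycline. Averaged over probe sets, KMT2D was at -0.33 (adjusted p = 0.0861) and SETD2 at -0.56 (0.145) there. KMT2A, the MLL gene, and KMT2C, a relative of KMT2D, did not pass, at -0.43 and -0.40 and at 0.12 and 0.30. KMT2A passed without doxycycline when PMA array 1 was left out, at -0.60 (adjusted p = 0.00563), or PMA array 1 with doxycycline (0.0433). With doxycycline KMT2A passed without any of 3 arrays (adjusted p between 0.0311 and 0.0354), KMT2D without PMA array 3 (0.0154) and SETD2 without PMA array 1 with doxycycline (0.0377). For KMT2D, and for KMT2A without PMA array 1 or 3, the array left out is not in the comparison with doxycycline. Leaving out an array from outside the groups compared changes only the shared estimate of the spread.

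Of 5 H3K9 methyltransferases, 4 fell in both comparisons. SUV39H1 and SUV39H2 place the trimethyl mark of constitutive heterochromatin. SUV39H1 had 7.93, 8.39 and 8.57 in vehicle, 7.99, 8.74 and 8.41 in vehicle with doxycycline, 6.80, 7.12 and 7.01 under PMA and 7.16, 6.98 and 7.13 under PMA with doxycycline. It fell by 1.32 without doxycycline (SE 0.19, 2.5-fold, adjusted p = 8.03e-05) and fell by 1.29 with it (SE 0.19, 2.44-fold, adjusted p = 9.05e-05). In each vehicle group array 1 was the lowest, yet still above all PMA arrays. SUV39H2 had 7.90, 8.66 and 8.52 in vehicle, 7.66, 8.26 and 8.37 in vehicle with doxycycline, 6.67, 6.47 and 6.57 under PMA and 6.35, 6.44 and 6.07 under PMA with doxycycline. It fell by 1.79 without doxycycline (SE 0.21, 3.46-fold, adjusted p = 1.15e-05) and fell by 1.81 with it (SE 0.21, 3.51-fold, adjusted p = 9.14e-06). Its second probe set fell as well, by 1.12 and 1.10.

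EHMT1 and EHMT2, also known as GLP and G9a, form a pair that places mono- and dimethyl H3K9. EHMT1 had 9.02, 9.14 and 9.27 in vehicle and 9.11, 8.87 and 8.94 with doxycycline. Under PMA it had 8.60, 8.26 and 8.03, and 8.68, 8.40 and 8.49 with doxycycline. EHMT1 fell by 0.85 without doxycycline (SE 0.14, 1.8-fold, adjusted p = 0.000328) and fell by 0.45 with it (SE 0.14, 1.37-fold, adjusted p = 0.0256). The groups did not overlap, but the call with doxycycline ended without vehicle array 1 or 3 with doxycycline or PMA array 2 or 3 with doxycycline (adjusted p between 0.054 and 0.0982). Its other 2 probe sets did not pass, at -0.24 and -0.29 without doxycycline, and lay under the array medians, at means of 4.98 and 4.65. EHMT2 did not pass, at -0.20 and -0.14, while another of its probe sets fell by 0.75 without doxycycline and the average of its probe sets was called at -0.30 and -0.32 (adjusted p = 0.0114 and 0.00731). SETDB1, which silences repeats, differed by -0.36 and -0.36 (adjusted p = 0.0328 and 0.0337). Its call without doxycycline ended without vehicle array 1 or 3 or any 1 of the 3 PMA arrays (adjusted p between 0.0543 and 0.134), and with doxycycline it ended without any of 4 arrays (adjusted p between 0.0662 and 0.143). Averaged over its probe sets SETDB1 did not pass, at -0.27 and -0.20 (adjusted p = 0.132 and 0.27), nor did it after cyclic loess scaling (0.0947 and 0.12).

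Among the arginine methyltransferases PRMT1, the main source of asymmetric dimethylarginine, fell. Its values were 11.14, 11.51 and 11.39 in vehicle, 11.04, 11.71 and 11.47 in vehicle with doxycycline, 10.32, 10.27 and 10.37 under PMA and 10.32, 10.09 and 10.28 under PMA with doxycycline. It fell by 1.03 without doxycycline (SE 0.15, 2.04-fold, adjusted p = 0.000124) and fell by 1.17 with it (SE 0.15, 2.26-fold, adjusted p = 3.41e-05). The PMA arrays lay close together and far under the vehicle arrays, yet the second probe set of PRMT1 did not pass, at -0.30 and -0.29 (adjusted p = 0.251 and 0.283 in the fit without probe sets that may share sequence with other transcripts). PRMT5, the symmetric counterpart, differed by -0.68 and -0.79 (adjusted p = 0.0229 and 0.00946). Without doxycycline that call ended without PMA array 1 or vehicle array 2 or 3 (adjusted p between 0.0791 and 0.098), and with doxycycline it ended without vehicle array 2 with doxycycline (0.0548). CARM1, a coactivator, differed by -0.49 and -0.48 and did not pass (adjusted p = 0.0641 and 0.0652). It passed without PMA array 1 (adjusted p = 0.0326), PMA array 2 (0.0492) or PMA array 1 with doxycycline (0.0411). In the comparison with doxycycline it passed without PMA array 1 with doxycycline (0.0188) or PMA array 3 (0.0216). The last array of each list is outside the groups compared, so leaving it out changes only the shared estimate of the spread. Of 26 other histone methyltransferases and readers listed, 25 were measured. Without doxycycline 10 fell and none rose, and with it 11 fell and 2 rose (list medians -0.33 and -0.35). The largest falls were those of PRMT6, at -2.0 and -2.26, and PRMT3, at -1.53 and -1.65.

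The 9 histone demethylases split. KDM1A, also called LSD1, which removes H3K4 methylation and has a known part in keeping myeloid cells immature, fell. Its signal was 9.60, 9.69 and 9.81 in vehicle, 9.55, 9.69 and 9.75 in vehicle with doxycycline, 8.52, 8.64 and 8.70 under PMA and 8.58, 8.60 and 8.36 under PMA with doxycycline. It fell by 1.08 without doxycycline (SE 0.11, 2.12-fold, adjusted p = 4.07e-06) and fell by 1.15 with it (SE 0.11, 2.21-fold, adjusted p = 2.11e-06). No PMA array reached the vehicle arrays. KDM4A, an H3K9 and H3K36 demethylase, differed by -0.56 and -0.60 (adjusted p = 0.000309 and 0.000161). KDM2B, which brings Polycomb to CpG islands, differed by -0.47 and -0.56 (adjusted p = 0.0129 and 0.0042), and its call without doxycycline ended without vehicle array 3 (0.065) or PMA array 3 (0.0679). KDM6B, the H3K27 demethylase known from macrophage activation, differed by 0.23 and 0.45 and passed with doxycycline (adjusted p = 0.162 and 0.00813). Without PMA array 3 its difference without doxycycline was 0.35 (adjusted p = 0.0384).

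The other 5 demethylases did not pass in either comparison on the probe set used. KDM3A, an H3K9 demethylase, was at 0.078 and 0.14, and KDM4B, a relative of KDM4A, at 0.14 and 0.22. KDM5A and KDM5B, which act on H3K4, were at 0.12 and 0.19 and at -0.20 and -0.17. All 4 other probe sets of KDM5A lay on the other side of 0 in both comparisons, and with all its probe sets averaged KDM5A was called lower with doxycycline, at -0.26 (adjusted p = 0.0488). Without probe sets that may share sequence with other transcripts it was called at -0.36 with doxycycline (0.0471), and KDM5B at -0.45 without it (0.049). The direction of KDM5A thus depends on the probe set. KDM4C had 8.02, 7.94 and 8.01 in vehicle, 8.19, 8.13 and 8.20 in vehicle with doxycycline, 8.07, 8.14 and 8.09 under PMA and 7.93, 8.20 and 8.05 under PMA with doxycycline. Its PMA differences were 0.11 and -0.12 (adjusted p = 0.467 and 0.438), with PMA above vehicle without overlap only where doxycycline was absent. Another of its probe sets rose by 0.66 and 0.52, so the choice of probe set decides the call of KDM4C. Of 12 further demethylases listed, 4 fell in each comparison, while 1 rose without and 2 with doxycycline (list medians -0.18 and -0.076). KDM1B, the relative of KDM1A, differed by -1.45 and -1.26, and JMJD6, an arginine demethylase and hydroxylase, by 0.62 and 0.80.

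All 3 class I histone deacetylases fell in both comparisons, and none of the 4 class IIa enzymes passed. HDAC1 differed by -0.62 and -0.84 (adjusted p = 0.000256 and 1.68e-05), HDAC2 by -0.93 and -0.91 (adjusted p = 0.000886 and 0.000949) and HDAC3 by -0.53 and -0.60 (adjusted p = 0.00446 and 0.00172). These enzymes are the catalytic subunits of the SIN3, NuRD, CoREST and NCoR corepressors. In both comparisons the PMA arrays of each lay wholly below the vehicle arrays. The class IIa enzymes, which recruit corepressors and shuttle out of the nucleus on signals, ranged from -0.016 to 0.31 without and from 0.10 to 0.30 with doxycycline. HDAC4 was dim, between 3.96 and 4.42 on all arrays and so under the array medians. HDAC9 was dim as well, with 4.95, 4.86 and 4.90 in vehicle, 4.92, 4.56 and 4.58 in vehicle with doxycycline, 5.17, 4.82 and 4.91 under PMA and 4.82, 4.88 and 4.87 under PMA with doxycycline. Its differences were 0.061 and 0.17 (adjusted p = 0.775 and 0.357), and the groups overlapped. HDAC5 and HDAC7 were at 0.31 and 0.30 and at 0.18 and 0.10. HDAC5 passed without doxycycline when PMA array 2 was left out (0.42, adjusted p = 0.0284).

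SIRT1, an NAD-dependent deacetylase, differed by -0.57 and -0.41 (adjusted p = 0.0272 and 0.11). The call without doxycycline ended without vehicle array 2 or 3 or PMA array 2 or 3 (adjusted p between 0.0794 and 0.125). With doxycycline it passed when vehicle array 2 with doxycycline was left out (0.0308). Of 21 other deacetylases and corepressor subunits listed, 19 were measured. Without doxycycline 8 fell and none rose, and with it 7 fell and 3 rose (list medians -0.30 and -0.35). SIN3A, the scaffold of a class I complex, differed by -1.13 and -1.12, and MTA3, a NuRD subunit, by -0.92 and -0.79.

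Among the 4 acetyltransferases none passed without doxycycline and KAT2B passed with it. EP300 and CREBBP, the general coactivators, were at -0.17 and 0.042 and at -0.39 and -0.10, and KAT2A, also called GCN5, at -0.30 and -0.18. Without PMA array 1 both CREBBP (-0.70, adjusted p = 0.015) and KAT2A (-0.47, adjusted p = 0.0335) passed without doxycycline. KAT2B, also called PCAF, had 8.32, 8.21 and 8.21 in vehicle, 8.20, 7.95 and 8.20 in vehicle with doxycycline, 7.93, 8.10 and 8.23 under PMA and 7.14, 7.88 and 7.68 under PMA with doxycycline. The PMA differences of KAT2B were -0.16 and -0.55 (adjusted p = 0.528 and 0.0174). The PMA array numbered 1 with doxycycline, at 7.14, was the lowest of the 12, and without it the difference with doxycycline was -0.34 (adjusted p = 0.0709). The call also ended without vehicle array 1 (0.0561) or 3 (0.0649) with doxycycline. Of 19 other acetyltransferases and bromodomain readers listed, 17 were measured, of which 9 fell and 3 rose without, and 11 fell and 3 rose with doxycycline (list medians -0.48 and -0.51). HAT1, which acetylates newly made histones, differed by -1.04 and -1.02, and BRPF1, a scaffold of the MOZ complex, by 0.51 and 0.66.

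Of the 5 remodellers, 4 fell in both comparisons. HELLS, also called LSH, a helicase that helps DNA methylation of repeats, had the largest change of all 49 genes. Its signal was 8.05, 9.22 and 9.11 in vehicle and 7.31, 8.52 and 8.72 with doxycycline. Under PMA it was 5.58, 5.89 and 5.87, and 4.38, 5.44 and 5.15 with doxycycline. HELLS fell by 3.01 without doxycycline (SE 0.37, 8.06-fold, adjusted p = 2.14e-05) and fell by 3.19 with it (SE 0.37, 9.15-fold, adjusted p = 1.11e-05). Array 1 was the lowest in each of the 4 groups, and all PMA arrays lay more than 1 unit under all vehicle arrays. Of its 4 other probe sets, 3 fell without doxycycline, at -1.25, -2.68 and -2.69. SMARCA4 and SMARCA2, the ATPases BRG1 and BRM of the SWI/SNF complex, differed by -0.74 and -0.67 and by -0.83 and -0.71 (adjusted p = 0.000577 and 0.00124, and for SMARCA2 0.00295 and 0.00805). ARID1A, the DNA-binding subunit of the same complex, differed by -0.95 and -0.90 (adjusted p = 0.00034 and 0.000505). The SMARCA2 probe set used is of a type that may share sequence with other transcripts. The probe set without this mark differed by 0.33 and 0.15 without passing, at a mean of 5.47 near the array medians. Of the 6 SMARCA2 probe sets not used, 2 were called lower without doxycycline, at -0.90 and -0.87, and these are of the type that may share sequence. For SMARCA4 the probe set without this mark was at -0.0083 and 0.052, but it was dim and lay under the array medians. Of the 8 SMARCA4 probe sets not used, 5 were called lower without doxycycline, all of the type that may share sequence. CHD4, the ATPase of NuRD, did not pass, at -0.026 and -0.22. All 30 other remodeller subunits listed were measured, and in each comparison 19 fell and 3 rose (list medians -0.47 and -0.55). ACTL6A and RUVBL2, subunits of several complexes, differed by -1.61 and -1.53 and by -1.58 and -1.69. CHD7 and CHD2, helicases of the CHD family, rose by 1.23 and 0.91 and by 1.06 and 0.95.

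The calls were read against the genes' other probe sets. Of the 28 genes called without doxycycline, 9 have 1 probe set. For 12 of the other 19 a further probe set was called in the same direction, and for 7 none was. No gene had a further probe set called in the opposite direction. In 4 genes that were not called, another probe set passed, EHMT2 and KMT2A lower and EZH1 and KDM4C higher.

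**Figure D3:**
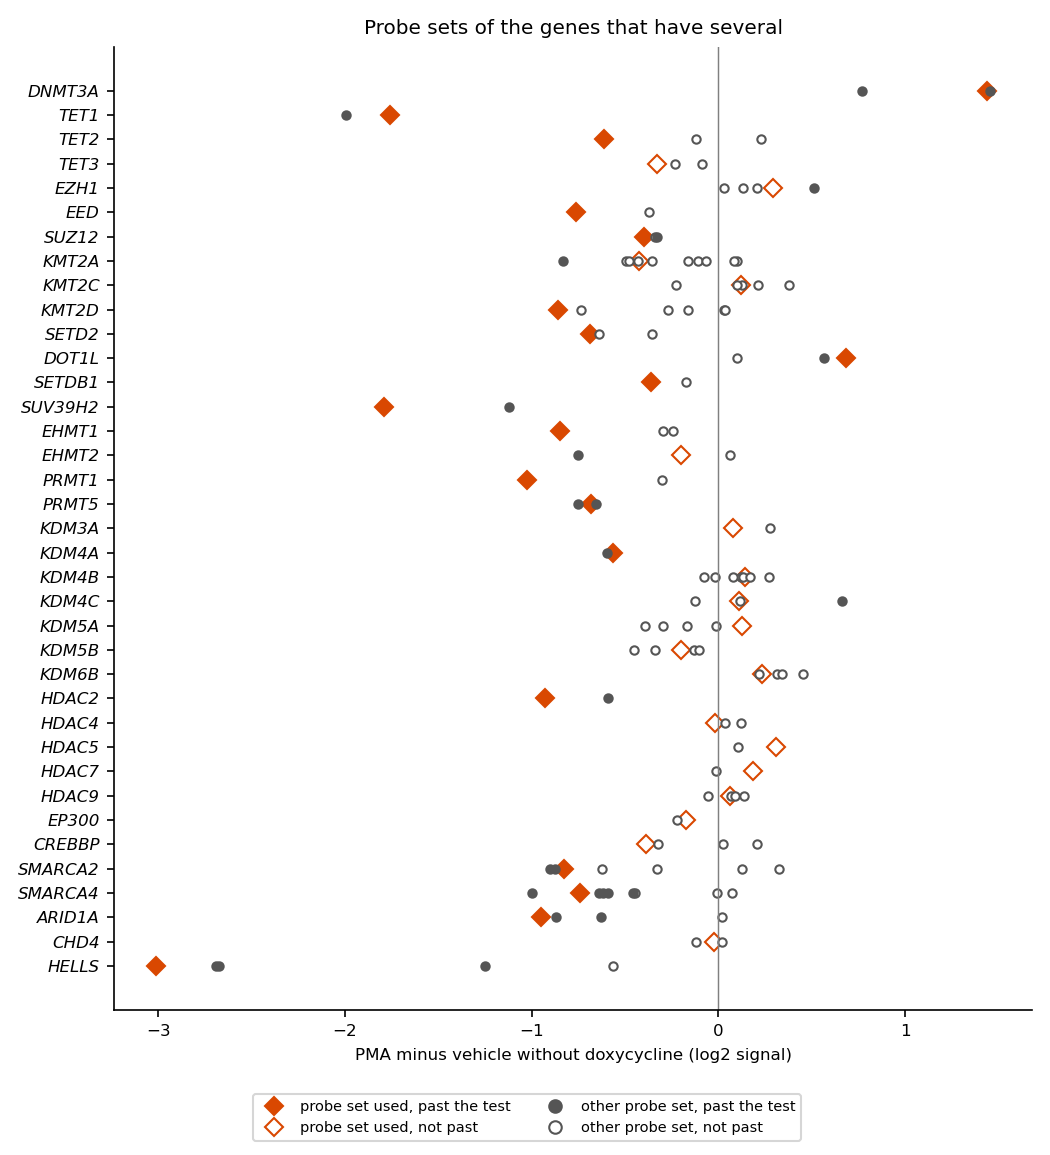
PMA minus vehicle without doxycycline (x axis, log2) for each probe set of the 37 genes that have several, with diamonds as the probe set used, circles as the others and filled marks as those with an adjusted p under 0.05. All probe sets of TET1 and DNMT3A, and those of HELLS apart from 1 open circle, are filled on 1 side of 0, while KMT2A, KDM4B and CHD4 scatter about 0 or have 1 filled mark at most.

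Related genes were then compared with each other within arrays, as the shift of their log2 ratio under PMA averaged over both doxycycline states. The level of 1 probe set says nothing about that of another, so only the shift is given. The 11 pairs were chosen with earlier results of these data known, so the p-values are not independent evidence. Of these pairs, 6 passed an exact permutation test within doxycycline states, two-sided, each at p = 0.005, the smallest that 400 relabelings allow, which is 0.00917 after Benjamini-Hochberg adjustment over the 11 pairs. EZH2 moved against EZH1 by -2.32, a 4.99-fold shift, with the vehicle ratios from 1.12 to 2.06 (median 1.81) and the PMA ratios from -0.77 to -0.46 (median -0.66). DNMT3B moved against DNMT3A by -1.95, a 3.88-fold shift, from 0.12 to 0.94 (median 0.46) in vehicle to between -1.68 and -1.12 (median -1.43) under PMA. KMT2C moved against KMT2D by 0.88. For these 3 pairs and for KDM5B against KDM5A, at -0.34, no PMA array overlapped the vehicle arrays. SUV39H1 against SUV39H2, at 0.50, and EHMT2 against EHMT1, at 0.48, passed with overlap.

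The choice of probe set decided 3 of these calls. With the mean of each gene's probe sets, EZH2 against EZH1, DNMT3B against DNMT3A and KMT2C against KMT2D passed, while SUV39H1 against SUV39H2 was at 0.15, EHMT2 against EHMT1 at 0.025 and KDM5B against KDM5A at 0.035, the last with its sign turned. The other 5 pairs did not pass: KDM4B over KDM4C at 0.18, HDAC2 over HDAC1 at -0.19, EP300 over CREBBP at 0.18, KAT2A over KAT2B at 0.11 and SMARCA4 over SMARCA2 at 0.064 (p between 0.155 and 0.76). The PMA arrays spread most for KAT2A over KAT2B, from -0.88 to 0.89.

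**Figure D4:**
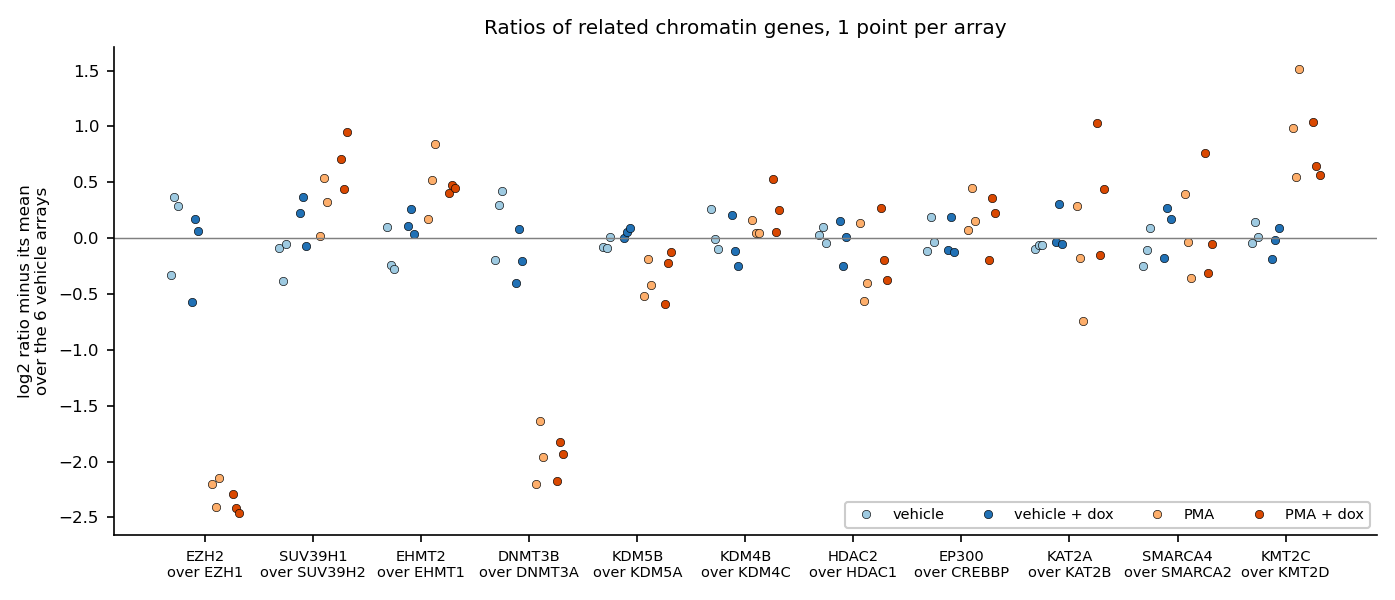
Log2 ratio of 11 pairs of related genes on each of the 12 arrays (y axis, minus the mean of the 6 vehicle arrays), with 1 point per array, blue for vehicle and orange for PMA, darker with doxycycline. EZH2 over EZH1 and DNMT3B over DNMT3A shift by -2.32 and -1.95 with no overlap, and SMARCA4 over SMARCA2 and KAT2A over KAT2B spread around 0.

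Doxycycline, which turns on the hairpin, changed no chromatin gene past limma's test, in PMA or in vehicle, averaged over both agents or in the interaction, while over all genes 0.00506% passed in PMA and 0 in the others. At an unadjusted p under 0.05 stood 7 of the 49 in PMA (14.3%, against 6.14% of all genes), 0 in vehicle (against 2.58%), 7 when averaged (14.3%, against 6.06%) and 0 in the interaction (against 2.62%). In PMA the 3 arrays with doxycycline lay wholly below those without for 8 members and wholly above for 4 (24.5% in all; of all genes 5.90% were below, 4.83% above and 10.7% either). In vehicle this held for 3 and 1 (8.16%; of all genes 3.47% were below, 5.08% above and 8.56% either). The comparisons of doxycycline use the same arrays as those of PMA and are not independent of them.

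The arrays with the same number and agent deviated together, so differences within these 6 pairs are given for the members with the smallest p. HELLS differed by -1.20, -0.45 and -0.72 in the PMA pairs 1 to 3 and by -0.74, -0.71 and -0.39 in the vehicle pairs. Its mean differences were -0.79 in PMA and -0.61 in vehicle (SE 0.37, adjusted p = 0.811 and 1). HELLS was lower in 6 of 6 pairs, most in the PMA pair 1. KAT2B differed by -0.79, -0.22 and -0.55 in the PMA pairs and by -0.12, -0.27 and -0.011 in the vehicle pairs, with a mean of -0.52 in PMA (SE 0.16, adjusted p = 0.616). It too was lower in 6 of 6, with the vehicle pair 3 close to 0. DOT1L differed by 0.41, 0.21 and 0.80 in PMA and by 0.42, 0.23 and 0.030 in vehicle, with a mean of 0.47 in PMA (SE 0.16, adjusted p = 0.686). It was higher in 6 of 6. TET1 differed by -0.53, -0.41 and -0.077 in PMA and by -0.11, -0.17 and -0.12 in vehicle, with a mean of -0.34 in PMA (SE 0.11, adjusted p = 0.666).

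Lower in 6 of 6 pairs were TET1, TET2, SUV39H2, HDAC1, KAT2B and HELLS, and higher in 6 of 6 were DOT1L, KDM4B, KDM5B and HDAC4. These are 12.2% and 8.16% of the members, where 4.01% of all genes were lower and 3.01% higher in every pair. With a block for each pair, which uses this pairing, 13 members stood at an unadjusted p under 0.05 in PMA (26.5%, against 13.2% of all genes). None passed then either, where 0.268% of all genes did. The nearest was HELLS in PMA, at an adjusted p of 0.0518, and 0.0653 averaged over both agents. On the arrays numbered 2 and 3 alone, 6 members stood at an unadjusted p under 0.05 in PMA (12.2%, against 8.65% of all genes). The ACTB 3′ to 5′ difference moved with doxycycline in PMA, from a mean of 1.51 without to 1.89 with it, and was 1.44 and 1.39 in vehicle. For GAPDH it was 0.175, 0.147 and 0.181 on the PMA arrays and 0.247, 0.189 and 0.174 with doxycycline. The part of RNA quality in the differences of the members was not tested.

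In the vehicle comparison no member stood at an unadjusted p under 0.05. The smallest was that of KDM4C, with 0.17, 0.20 and 0.19 in the vehicle pairs and -0.14, 0.055 and -0.044 in the PMA pairs. The vehicle arrays with doxycycline lay wholly above those without, by 0.18 (unadjusted p = 0.0826, adjusted p = 1). HDAC9 differed by -0.21 in vehicle and -0.11 in PMA (unadjusted p = 0.103 and 0.399). The vehicle arrays 2 and 3 with doxycycline were the lowest of the 12, at 4.56 and 4.58, while array 1 with doxycycline lay among those without. EHMT1 had the smallest p of the interaction: its PMA difference was 0.40 higher with doxycycline than without (SE 0.20, unadjusted p = 0.0695, adjusted p = 1).

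**Figure D5:**
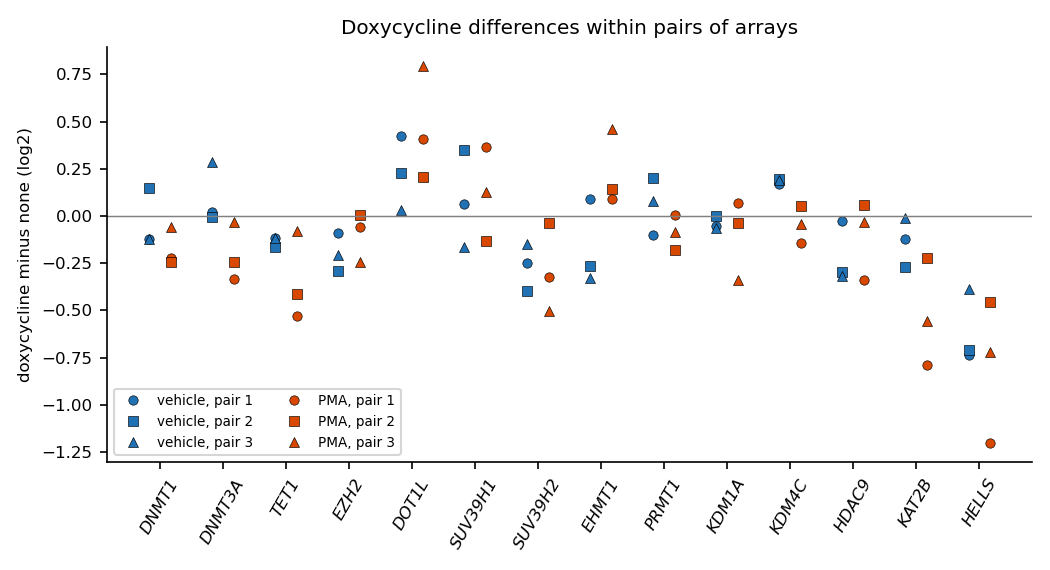
Doxycycline minus none within each of the 6 pairs of arrays (y axis, log2) for 14 genes, with shapes for pairs 1 to 3, blue for vehicle and orange for PMA. All 6 marks of HELLS lie under 0, the lowest at -1.20, and all 6 of DOT1L above it, the highest at 0.80.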

How the data were processed

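The deposited values are log2 signals. The submitters' processing notes name RMA and the authors' further steps were not in the sources used. The labels' protocols give biotin-labelled RNA from total RNA on 1 array per sample. No further scaling was applied. Of 54675 probe sets, 62 were controls, 41091 paired with 1 gene, 1801 with several and 11721 with none in the annotation used, which gave 19775 genes. No filter on dim genes was set.

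Means of the 4 groups were fitted over all 12 arrays with limma 3.58.1 in R 4.3.3 (lmFit and eBayes, 8 residual and 5.6 prior degrees of freedom), and a gene was called at a two-sided Benjamini-Hochberg adjusted p under 0.05 over all genes. The procedure was tested on simulated data. Ratios of related genes and ZXDC were tested by exact permutation of arrays. The labels call the arrays biological replicates and do not say that cultures were separate, so p-values measure the spread between these samples, and 3 arrays per group limit the precision.

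Same-numbered arrays with and without doxycycline deviated together from their group means, with correlations of 0.57, 0.254 and 0.308 in vehicle and 0.637, 0.288 and 0.324 in PMA, all over the limit of 0.1. Arrays 2 and 3 also correlated across their numbers, at 0.241 and 0.12 in vehicle and 0.394 and 0.302 in PMA. Array 1 correlated negatively with arrays 2 and 3 in both agents. The correlations thus set array 1 apart, but in PMA they do not separate pair 2 from pair 3. The pairs were taken from the labels' numbers. Between the agents the correlations were 0.158, -0.01 and 0.155 without and 0.196, 0.071 and 0.059 with doxycycline. Those of 0.158, 0.155 and 0.196 were over the limit and the others were not. The main fit did not take PMA and vehicle arrays as paired, and a fit with the replicate number as a block is given below.

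Full array values are given for genes called with a log2 difference of at least 1 under PMA or with 1 of the 3 smallest p in a doxycycline comparison. From each list of partner genes, up to 2 called genes in each direction with the largest difference were named. The members, lists and pairs were chosen with earlier results of these data known. Promoter letters come from RefSeq on GRCh38.p14. Alternatives were other choices of probe set, scaling, filters, blocks and arrays left out.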

Additional observations from a re-analysis of the deposited data

How the results depend on the processing

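Of the 28 members called without doxycycline, 16 kept their call under all alternatives run and 12 lost it under at least 1, while 10 others were called under at least 1. With doxycycline the numbers were 18, 10 and 8. Leaving out single arrays gave 22 to 31 members called without doxycycline (20 to 29 lower, 2 to 3 higher) and 24 to 30 with it (21 to 26 lower, 3 to 4 higher), where 26.6% to 33.0% and 27.8% to 33.7% of all genes were called. It left the doxycycline comparisons and the interaction at 0, the ratios of related genes at 6 passing, and the ZXDC difference between -0.57 and -0.43. Without probe sets that may share sequence with other transcripts, 35 members could be tested, of which 16 were called without doxycycline (14 lower) and 18 with it (14 lower), against 27.7% and 28.7% of all genes. Of the called members, EED and SMARCA4 with doxycycline and SMARCA2 in both states turned their sign there without passing. Cyclic loess scaling called 4 members higher without doxycycline in place of 2. It also ended the lower calls of SUZ12, SETDB1 and SIRT1 there (adjusted p = 0.0612, 0.0947 and 0.0604, limma). With doxycycline it ended those of SUZ12, SETDB1 and EHMT1 (0.173, 0.12 and 0.0935) and called HDAC5 higher (0.024). With all probe sets of each gene averaged, 3 of 11 ratios passed, and KDM5B against KDM5A reversed, at 0.035. With the replicate number as a block, 31 members were called without doxycycline (28 lower, 3 higher) and 29 with it (25 lower, 4 higher), where 35.4% and 36.2% of all genes were called. The block added EZH1, KMT2A and CARM1 without doxycycline (adjusted p = 0.0267, 0.0397 and 0.00698) and CARM1 with it (0.00722) and changed no other call. Under exchange within same-number pairs, which is the replicate block for the ratios, 0 of 11 passed, since the smallest p then adjusts to 0.0573. The block for each of the 6 pairs called no member. The cause of these changes was not tested, apart from the smaller number of members tested and the smallest p of the exchange. Dim genes such as HDAC4 and HDAC9 limit what a fall can show.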

Other observations

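Histone chaperones, which carry histones to and from DNA, were listed beside the chromatin enzymes. Of 16 measured, 13 fell under PMA without doxycycline and 13 with it, and none rose (list medians -1.0 and -1.12), where 18.9% and 19.5% of all genes were called lower. NASP, which stores H3 and H4, was at -2.19 and -2.73 (adjusted p = 2.64e-07 and 2.75e-08, limma), and ASF1B, a chaperone of H3 and H4 in dividing cells, at -1.99 and -2.21 (adjusted p = 1.04e-05 and 3.62e-06).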
